A study of Mus musculus with 6 samples.

Results

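The genes described here are 8 that bear on the innervation of endometriosis-like lesions. They are the neurotrophin ligands *Bdnf* and *Ntf3*, the neurotrophin receptors *Ntrk2* and *Ngfr*, the ligand *Gdnf* and its coreceptor *Gfra1*, the growth-cone gene *Gap43* and the sensory peptide gene *Tac1*. They were taken by symbol from the 41786 symbols counted, and all 8 were found. RNA was sequenced from lesions grown in female C57BL/6 mice, where uterine tissue of a 6-week-old donor carrying GFP had been sutured inside the body wall, onto the peritoneum, of wild-type recipients aged 8 weeks and matched for the stage of the estrous cycle. From 3 days after surgery recipients were given niclosamide, an anthelmintic drug, by mouth at 200 mg/kg daily for 3 weeks (3 libraries), or vehicle in the same way (3 libraries). Lesions were taken in diestrus, after the uterine-derived tissue had been separated from recipient tissue. Both groups share the GFP-positive donor genotype, the strain and the sex, and donor and recipient transcripts were not separated in the counts. Each library came from 1 mouse, except vehicle 1, for which the RNA of 4 mice had been pooled, and libraries are called niclosamide 1 to 3 and vehicle 1 to 3.

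Neurotrophins are secreted proteins that keep neurons alive and direct the growth of their axons. BDNF signals through the receptor tyrosine kinase TrkB, encoded by *Ntrk2*, and NT-3, encoded by *Ntf3*, mainly through TrkC, encoded by *Ntrk3*; p75, encoded by *Ngfr*, binds every neurotrophin and their unprocessed precursors. GDNF binds GFRα1 and the complex then activates the receptor RET. Nerve cell bodies of peripheral axons lie in ganglia outside the lesion, so that most RNA of a sensory or sympathetic neuron is not in the tissue sequenced, whereas Schwann cells, muscle, stroma and epithelium are there with their own RNA. Sensory and sympathetic nerve fibres have been described in endometriotic lesions and in rodent models, where neurotrophins are studied in connection with pelvic pain.

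Total counts ran from 27797121 to 34797000 per library, and 17364 genes passed the filter on low counts and were tested. A count of 3, the upper limit that a count of 0 allows, is 0.0862 to 0.108 CPM (counts scaled to a library total of 1000000), for counting error only. Of 6 uterine identity genes, *Hoxa10*, *Hoxa11*, *Esr1*, *Pgr* and *Emx2* were at 25.3 CPM or more in every library. By edgeR 5 of the 6 had a log2 fold change below 0 (46.3% of all genes tested), with a median of -0.58, and 0 had an adjusted p under 0.05. *Pgr* was at -1.04 ± 0.40 (SE, edgeR unadjusted p = 0.038, adjusted p = 0.68), with overlapping groups. The groups did not overlap in 2 of the 6, *Emx2* and *Foxa2*, both lower, and in 6.38% of all genes tested as lower. The gland gene *Foxa2* was at 0.475 to 1.12 CPM in niclosamide lesions and 1.70 to 3.68 CPM in vehicle lesions, without overlap (log2 fold change -1.52 ± 0.47 SE, edgeR unadjusted p = 0.016, adjusted p = 0.62). Skeletal muscle genes, a tissue of the recipient's body wall, differed widely: the 10 markers summed to 29728, 891 and 13742 TPM (counts per exon length, scaled to a total of 1000000) in niclosamide 1 to 3 and to 4843, 12282 and 12435 TPM in vehicle 1 to 3. Of 6 structural RNAs 4 were lower in every niclosamide library than in any vehicle library, where 6.38% of all genes tested were. Among them was *Rn7sk*, at 9.44, 2.32 and 1.03 CPM in niclosamide 1 to 3 and 42.5, 17.4 and 19.1 CPM in vehicle 1 to 3, while *Rn18s-rs5* and *Rnu73b* overlapped. The 6 had a median log2 fold change of -2.53. By edgeR 3 of them were lower at an unadjusted p under 0.05 (3.55% of all genes tested), and 0 had an adjusted p under 0.05. DESeq2 gave 1 of the 6, *Rpph1*, an adjusted p under 0.05 (0.020, log2 fold change -2.92), as it gave 0.583% of its tested genes as lower. The part of skeletal muscle or of structural RNA in the results below was not tested.

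The first question was how abundant each transcript is. Per exon length, *Ngfr* was the most abundant of the 8 in both groups, with 15.8 TPM ± 10.3 in niclosamide lesions and 43.6 TPM ± 31.1 in vehicle lesions (SD, n = 3 each), and *Tac1* the least, with 0.181 TPM ± 0.094 in niclosamide lesions and 0.163 TPM ± 0.020 in vehicle lesions. In niclosamide lesions the order after *Ngfr* was *Gap43* (4.18 TPM ± 3.14), *Ntrk2* (4.03 ± 2.37), *Ntf3* (4.00 ± 2.28), *Gdnf* (3.17 ± 0.49), *Gfra1* (2.03 ± 0.36) and *Bdnf* (0.894 ± 0.145). In vehicle lesions it was *Ntf3* (8.11 TPM ± 1.91), *Gdnf* (7.93 ± 4.03), *Ntrk2* (5.88 ± 1.81), *Gap43* (2.74 ± 0.40), *Gfra1* (2.60 ± 0.39) and *Bdnf* (2.25 ± 0.45). The libraries of *Gap43*, *Ntrk2*, *Ntf3* and *Gdnf* overlapped from each to the next in niclosamide lesions, and so did those of *Ntf3*, *Gdnf* and *Ntrk2*, and of *Gap43*, *Gfra1* and *Bdnf*, in vehicle lesions. The length used is that of every annotated exon joined. It is 24146 bases for *Ntrk2*, whose 23 exon intervals are summed over the kinase and truncated forms of TrkB, which gene counts do not separate.

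**Figure D1:**
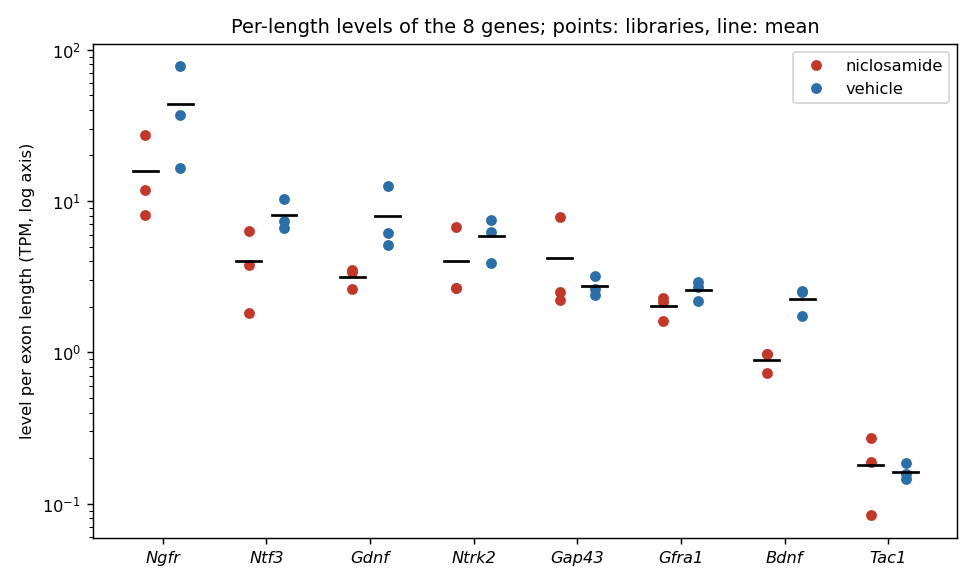
Per-length level (TPM, log axis) of the 8 genes in each library, with niclosamide libraries on the left of each pair and vehicle libraries on the right; the line is the mean. *Ngfr* lies highest in both groups, and on this scale the libraries of *Bdnf*, *Gdnf* and, narrowly, *Ntf3* do not overlap between the groups.

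In the comparison of niclosamide with vehicle, the ligand genes *Bdnf* and *Gdnf* were lower in every niclosamide library than in any vehicle library, at 0.443 and 0.458 times the vehicle level by the fitted fold change. *Ntf3* and *Ngfr* had lower means as well, with overlapping libraries, *Ntrk2* and *Gfra1* had fold changes nearer to 0, and the mean of *Gap43* was higher through 1 library. No difference passed the threshold: with edgeR (quasi-likelihood F test, p adjusted by Benjamini and Hochberg's method), 0 of the 7 genes of the set that were tested had an adjusted p under 0.05, and so had 0 (0%) of the 17364 genes tested. At an unadjusted p under 0.05, 2 of the 7 were lower and 0 higher, where 6.92% of all genes tested had such a p, 3.55% lower and 3.37% higher. The groups did not overlap in 2 of the 7, both lower, and in 12.3% of all genes tested, 6.38% lower and 5.90% higher. A log2 fold change below 0 was found in 6 of the 7 and in 46.3% of all genes tested, and one below -1 in 3 of the 7 and in 2.52% of all, with a median of -0.85 in the 7 and 0.02 over all. The set and the lists below were chosen with earlier results of these data known, so such shares are descriptive and not independent support. DESeq2 gave 1 of the 7, *Bdnf*, an adjusted p under 0.05, which it gave to 1.01% of the genes it tested in either direction and 0.583% as lower. In whole lesions, fewer cells of a type and less RNA per cell cannot be told apart.

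**Figure D2:**
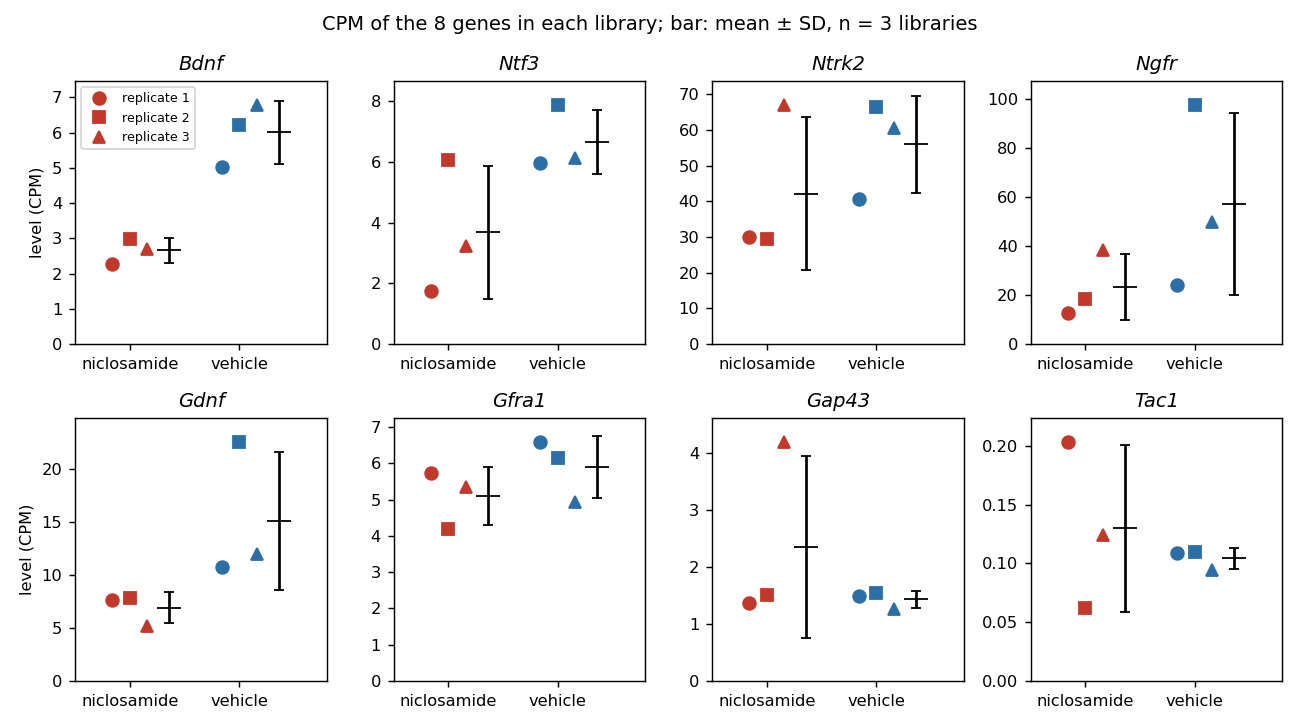
Level (CPM) of the 8 genes in each of the 3 niclosamide libraries (red, left) and 3 vehicle libraries (blue, right); symbols mark the replicate number and the bar the mean ± SD. *Bdnf* and *Gdnf* separate the groups, *Ngfr* and *Gdnf* are highest in vehicle 2, and *Gap43* is high in niclosamide 3.

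*Bdnf*, the ligand of TrkB, lies on chromosome 2 at 109674700 to 109727043 on the plus strand (GRCm38.p3) and was counted over 9 exon intervals. It had 2.27, 3.00 and 2.70 CPM in niclosamide 1 to 3, from 67 to 97 counts, against 5.03, 6.20 and 6.78 CPM in vehicle 1 to 3, from 138 or more counts. All niclosamide libraries were thus below all vehicle libraries, and the spread within each group was small, the highest library being 1.32 times the lowest in niclosamide and 1.35 times in vehicle. The means were 2.66 CPM ± 0.36 in niclosamide lesions and 6.00 CPM ± 0.89 in vehicle lesions (SD, n = 3 each), and their difference was larger than either SD. The log2 fold change was -1.17 ± 0.26 (SE), with a 95% interval of -1.80 to -0.55 (edgeR unadjusted p = 0.0032, adjusted p = 0.53). DESeq2's Wald test gave an adjusted p of 0.0023 for the same counts, and over the other alternatives the adjusted p ran from 0.26 to 1.00. Leaving out any 1 library moved the log2 fold change no further than -1.29 and -1.07.

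*Ntf3*, which encodes NT-3, lies on chromosome 6 at 126101412 to 126166791 on the minus strand. Its level was 1.77, 6.05 and 3.23 CPM in niclosamide 1 to 3, against 5.98, 7.88 and 6.12 CPM in vehicle 1 to 3. Niclosamide 2 lay between vehicle 1 and vehicle 3, while niclosamide 1 and 3 were below every vehicle library; per exon length niclosamide 2, at 6.36 TPM, was below the lowest vehicle library, at 6.67 TPM. Its log2 fold change was -0.85 ± 0.46 (SE), with a 95% interval of -1.95 to 0.25 (edgeR adjusted p = 0.80). Without niclosamide 2 it was -1.42 and without niclosamide 1 it was -0.52.

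*Gdnf*, the ligand of GFRα1 and RET, lies on chromosome 15 at 7810048 to 7837580 on the plus strand. It had 7.67, 7.84 and 5.22 CPM in niclosamide 1 to 3, against 10.7, 22.6 and 12 CPM in vehicle 1 to 3. The groups did not overlap, and vehicle 2 stood above the other vehicle libraries. The means were 6.91 CPM ± 1.47 in niclosamide lesions and 15.1 CPM ± 6.51 in vehicle lesions (SD, n = 3 each), and the vehicle mean was 11.3 CPM without vehicle 2. For *Gdnf* the log2 fold change was -1.13 ± 0.35 (SE), with a 95% interval of -1.96 to -0.29 (edgeR unadjusted p = 0.016, adjusted p = 0.62), and -0.71 without vehicle 2. DESeq2's adjusted p was 0.15, and over the other alternatives the adjusted p ran from 0.41 to 1.00.

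Start-site windows of *Bdnf* and *Gdnf*, the genes of the set whose groups did not overlap in CPM, are shown where they hold a match to a motif searched, which 3 of their 9 windows did; the other 6 hold none and are not printed. RefSeq's promoter table (GRCm38.p6, windows of 300 bases from 250 before to 50 after a start) holds 15 windows for 7 of the 8 genes, 7 of them for *Bdnf*; *Gap43* was not matched. The windows were searched on both strands for the cAMP response element core TGACG, bound by CREB, a known activator of *Bdnf* in neurons, for the palindrome TTCNNNGAA bound by STAT factors, and for an NF-kB consensus site, since niclosamide is known as an inhibitor of STAT3 and NF-kB signalling. TGACG was found in 3 of the 15 windows, 1 each of *Bdnf*, *Gdnf* and *Tac1*, and in 20.8% of all 32851 windows. TTCNNNGAA was found in 1 window of *Bdnf* and in 8.30% of all windows, and the NF-kB site in 0 of the 15 and in 0.411% of all. Capitals mark these matches, given 5′ to 3′ on the plus strand, where TGACG reads CGTCA when it lies on the opposite strand. A match describes letters in a window and not a site in use.
*Bdnf* chr2:109674450-109674749: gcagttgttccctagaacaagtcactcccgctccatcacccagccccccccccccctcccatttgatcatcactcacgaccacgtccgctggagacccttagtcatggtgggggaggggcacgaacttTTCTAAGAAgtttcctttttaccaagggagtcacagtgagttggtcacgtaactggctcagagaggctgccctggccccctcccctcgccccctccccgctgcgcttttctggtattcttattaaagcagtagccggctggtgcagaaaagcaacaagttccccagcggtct
*Bdnf* chr2:109692186-109692485: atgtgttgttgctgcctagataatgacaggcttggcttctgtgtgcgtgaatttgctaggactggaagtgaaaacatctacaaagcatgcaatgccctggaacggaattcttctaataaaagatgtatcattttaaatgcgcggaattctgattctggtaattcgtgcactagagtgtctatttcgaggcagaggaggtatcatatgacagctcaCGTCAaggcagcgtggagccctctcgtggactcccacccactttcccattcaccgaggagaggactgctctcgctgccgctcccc
*Gdnf* chr15:7809798-7810097: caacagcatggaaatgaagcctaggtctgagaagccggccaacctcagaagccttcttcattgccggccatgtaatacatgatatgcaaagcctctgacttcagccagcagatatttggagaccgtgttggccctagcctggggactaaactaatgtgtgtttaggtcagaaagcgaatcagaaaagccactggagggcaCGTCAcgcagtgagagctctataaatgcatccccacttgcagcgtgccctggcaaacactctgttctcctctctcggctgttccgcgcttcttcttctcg

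For each receptor gene, the highest library of at least 1 group exceeded the lowest of that group by a larger ratio than that of the group means. *Ngfr*, encoding the neurotrophin receptor p75 that Schwann cells and some stromal cells express, lies on chromosome 11 at 95568818 to 95587698 on the minus strand. It had 12.9, 18.6 and 38.5 CPM in niclosamide 1 to 3, against 24.2, 97.6 and 50.0 CPM in vehicle 1 to 3. Niclosamide 3 was above vehicle 1, and the vehicle libraries spanned 4.03 times, the widest span within a group among the 8 genes. For *Ngfr* the log2 fold change was -1.30 ± 0.60 (SE), with a 95% interval of -2.75 to 0.16 (edgeR adjusted p = 0.77). Without vehicle 2 it was -0.68 and without niclosamide 3 it was -1.84.

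*Ntrk2*, encoding TrkB, lies on chromosome 13 at 58806569 to 59133970 on the plus strand. It had 30.0, 29.5 and 67.0 CPM in niclosamide 1 to 3, against 40.8, 66.6 and 60.5 CPM in vehicle 1 to 3. Niclosamide 1 and 2 were below every vehicle library, and niclosamide 3 was the highest of the 6. The fitted log2 fold change was -0.41 ± 0.37 (SE), with a 95% interval of -1.31 to 0.49 (edgeR adjusted p = 0.95), and -0.90 without niclosamide 3.

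*Gfra1*, the GDNF coreceptor gene on chromosome 19 at 58235581 to 58455946 on the minus strand, was the steadiest of the 8. It had 5.74, 4.20 and 5.34 CPM in niclosamide 1 to 3, against 6.59, 6.15 and 4.93 CPM in vehicle 1 to 3, so that the libraries overlapped and the highest of all 6 was 1.57 times the lowest. Its log2 fold change was -0.21 ± 0.25 (SE), and its 95% interval of -0.80 to 0.38 does not reach a doubling or halving (edgeR adjusted p = 0.96). Exons of 2 opposite-strand genes overlap those of *Gfra1*, and the counting used strand; no other gene of the 8 shares exon bases with a gene on either strand.

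The nerve markers gave the fewest reads of the 8 genes. *Gap43*, a growth-cone protein gene of regenerating axons on chromosome 16 at 42248552 to 42340651 on the minus strand, had 1.36, 1.51 and 4.19 CPM in niclosamide 1 to 3, against 1.49, 1.54 and 1.26 CPM in vehicle 1 to 3. Only niclosamide 3 stood apart, with 135 counts, where the other 5 libraries had 40 to 56. For *Gap43* the log2 fold change was 0.72 ± 0.50 (SE), with a 95% interval of -0.48 to 1.93 (edgeR adjusted p = 0.89), and 0.02 without niclosamide 3. *Tac1*, the precursor gene of substance P and neurokinin A on chromosome 6 at 7554776 to 7562978 on the plus strand, had 6, 2 and 4 counts in niclosamide 1 to 3, against 3, 4 and 3 counts in vehicle 1 to 3. It did not pass the filter on low counts, lay at 0.0618 to 0.204 CPM, about the level of 3 counts, and a difference was not detectable at this depth.

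Across the set no library was high or low for every gene. Vehicle 2 was the highest of the 6 for *Ntf3*, *Ngfr* and *Gdnf*, and niclosamide 3 for *Ntrk2* and *Gap43*. Niclosamide 1 was the lowest for *Bdnf*, *Ntf3* and *Ngfr*. That library was also the lowest of all for each of the 6 uterine identity genes. Its sums of skeletal muscle and adipocyte markers were the highest of all libraries, at 29728 and 1658 TPM. The part of tissue content in its low values was not tested. *Gdnf* and *Ntrk2* were unlike in niclosamide 3, which was the lowest library for *Gdnf* and the highest for *Ntrk2*.

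Of 10 smooth muscle markers 7 were lower in every niclosamide library than in any vehicle library, as *Bdnf* and *Gdnf* were, where 6.38% of all genes tested were. All 10 markers had a log2 fold change below 0 (median -1.27), 7 of them with an unadjusted p under 0.05, where 3.55% of all genes tested were lower at such a p, and 0 past the adjusted threshold. Their summed level was 1775 to 4831 TPM in niclosamide lesions and 6300 to 8350 TPM in vehicle lesions, and none of the 10 was at 0. Among the niclosamide libraries both the smooth muscle sum and *Bdnf* were highest in niclosamide 3 in TPM, with *Bdnf* at 0.726, 0.973 and 0.981 TPM in niclosamide 1 to 3. In CPM, however, *Bdnf* was highest in that group in niclosamide 2, at 3.00 CPM, where the smooth muscle sum was lowest. That sum includes *Des*, at 898, 246 and 614 TPM in niclosamide 1 to 3, highest where the skeletal muscle markers were highest. Single markers differed in their lowest library. *Acta2* was at 337 TPM in niclosamide 1 and 449 TPM in niclosamide 2, and *Myh11* at 102 and 69.0 TPM. Among vehicle libraries the sum was highest in vehicle 1, where *Bdnf* was lowest, at 1.73 TPM. *Gdnf* was at 2.61 TPM in niclosamide 3, its lowest library in either group. Of the 8 epithelial markers 7 had a log2 fold change below 0 (median -0.22), as had 46.3% of all genes tested. Their summed levels were 399 to 2438 TPM in niclosamide lesions and 973 to 2282 TPM in vehicle lesions. In TPM, *Ntf3* and the epithelial sum were both lowest in niclosamide 1 and, within that group, highest in niclosamide 2, whereas among vehicle libraries the sum was highest in vehicle 1, where *Ntf3* was lowest. The 8 stromal markers summed to 8111 to 10946 TPM in niclosamide lesions and 9365 to 10049 TPM in vehicle lesions. The part of these markers in the results was not tested.

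**Figure D3:**
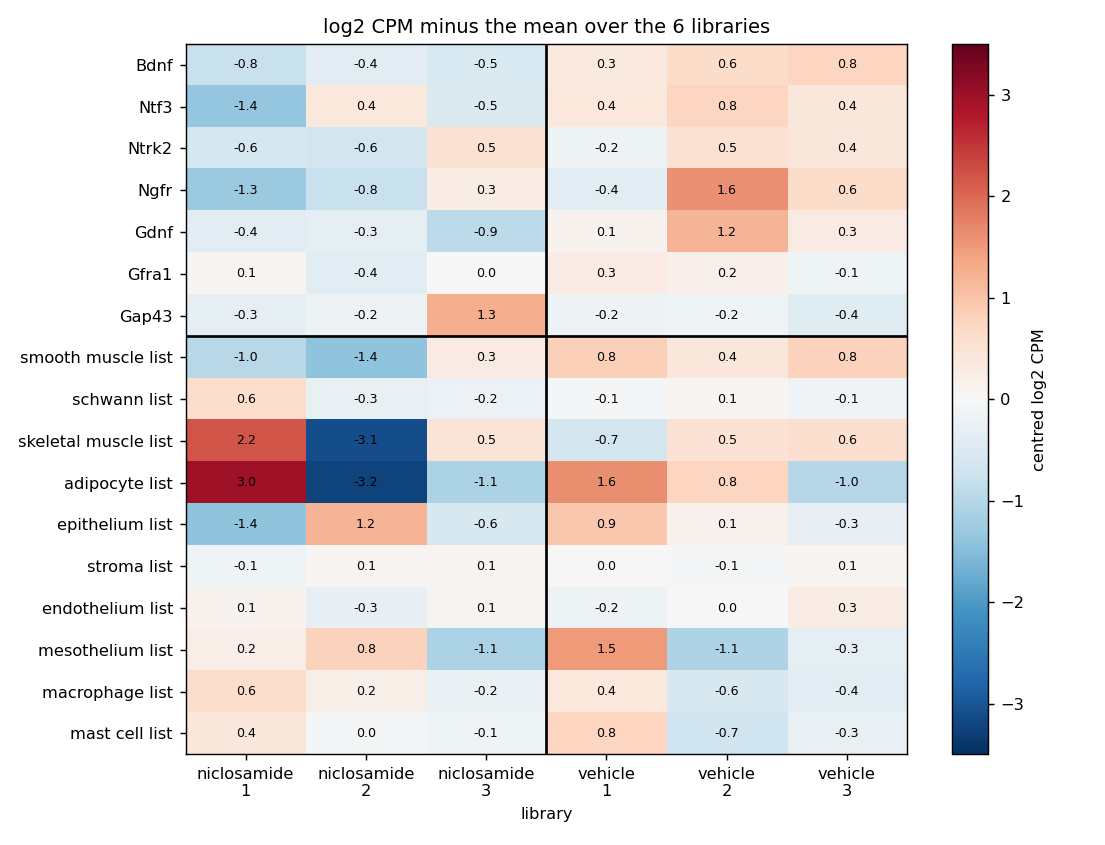
Centred log2 CPM (each row minus its mean over the 6 libraries) of the 7 tested genes of the set, above the line, and of the mean over each list of cell type markers, below it; niclosamide libraries are on the left. *Bdnf* and *Gdnf* are below 0 in all 3 niclosamide libraries and above 0 in all 3 vehicle libraries, and skeletal muscle and adipocyte markers range most widely, with niclosamide 1 high and niclosamide 2 low.

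Other genes of the neurotrophin system were mostly below 0 without passing the threshold. Of 19 listed, 18 were tested and 0 passed in either direction. A log2 fold change below 0 was found in 16 (46.3% of all genes tested) and one above in 2. The median was -0.27 against 0.02 over all genes tested. The groups did not overlap in 2 of the 18, both lower, and in 6.38% of all genes tested as lower. *Ntrk3*, which encodes TrkC, the main receptor of NT-3, had the smallest p of the list. It had 4.11, 5.93 and 8.73 CPM in niclosamide 1 to 3, against 18.2, 8.32 and 23.1 CPM in vehicle 1 to 3, where vehicle 2 was just below niclosamide 3. Its log2 fold change was -1.40 ± 0.45 (SE; edgeR adjusted p = 0.64). *Plat*, the tissue plasminogen activator gene whose product starts the plasmin cleavage of pro-BDNF, had 98.7, 224 and 101 CPM in niclosamide 1 to 3, against 483, 235 and 289 CPM in vehicle 1 to 3, without overlap (log2 fold change -1.25 ± 0.43, edgeR adjusted p = 0.65). *Maged1*, a p75-binding adaptor and the most abundant gene of the list by CPM, averaged 227 CPM ± 63.5 in niclosamide lesions and 305 CPM ± 17.6 in vehicle lesions (SD, n = 3 each). Its log2 fold change was -0.43 ± 0.23 (SE; edgeR adjusted p = 0.80). In CPM its groups were only narrowly apart, with niclosamide 3 at 288.7 and vehicle 1 at 291.4. Per exon length they overlapped, with niclosamide 3 at 256 TPM and vehicle 1 at 245 TPM.

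Among other GDNF family genes the ligand *Nrtn* stood out. *Nrtn* encodes neurturin, which signals mainly through GFRα2 and RET. It had 2.44, 4.14 and 2.77 CPM in niclosamide 1 to 3, against 8.56, 8.32 and 9.92 CPM in vehicle 1 to 3, with means of 3.12 CPM ± 0.90 in niclosamide lesions and 8.93 CPM ± 0.87 in vehicle lesions (SD, n = 3 each). Every niclosamide library was below every vehicle library. The log2 fold change was -1.52 ± 0.28 (SE; edgeR unadjusted p = 0.0012, adjusted p = 0.52), and DESeq2's adjusted p was 0.00021. *Gdf15*, a stress-induced cytokine gene, averaged 3.40 CPM ± 1.36 in niclosamide lesions and 6.52 CPM ± 2.66 in vehicle lesions (SD, n = 3 each; edgeR adjusted p = 0.77), and the syndecan gene *Sdc3*, the most abundant of the list by CPM, 268 CPM ± 57.1 in niclosamide lesions and 222 CPM ± 48.2 in vehicle lesions. The signalling receptor gene *Ret* was present at 2.22 to 6.63 CPM with overlapping groups. Of the 11 genes 8 were tested, 0 passed in either direction, and 6 were below 0 (46.3% of all genes tested) with a median of -0.21. The groups did not overlap in 2 of the 8, both lower, and in 6.38% of all genes tested as lower.

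**Figure D4:**
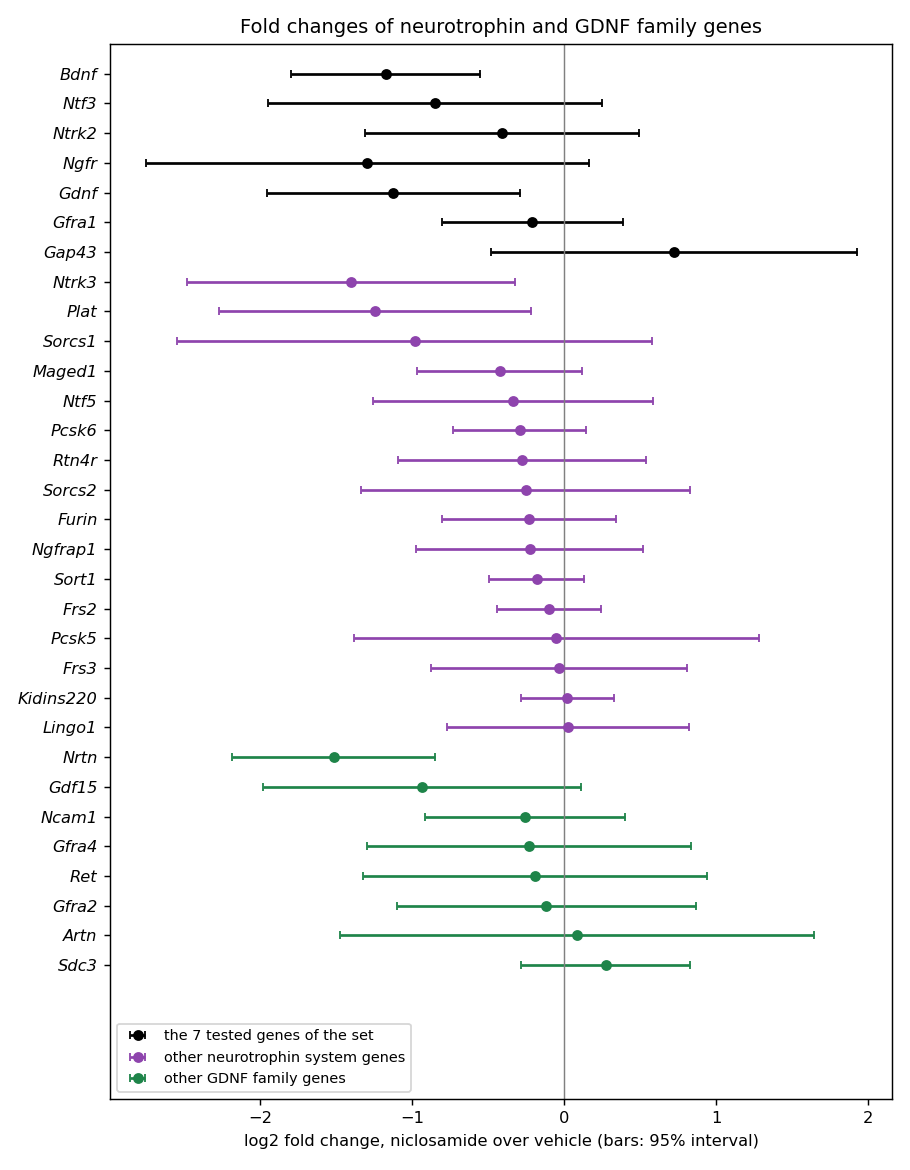
Log2 fold change, niclosamide over vehicle, with its 95% interval for the 7 tested genes of the set (black), 16 of the 18 other tested genes of the neurotrophin system (purple) and 8 other genes of the GDNF family (green). *Nrtn*, *Bdnf* and *Gdnf* have intervals that stay below 0, as do *Ntrk3* and *Plat*; none passed the adjusted threshold.

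Of 17 genes of axon growth and neuron identity 10 were tested, with 0 past the threshold. A log2 fold change below 0 was found in 7 (46.3% of all genes tested), and the median was -0.23. Of the neurofilament genes, *Nefl* had at most 2 counts in any library and *Nefm* at most 3. The third, *Nefh*, had 1.63, 1.70 and 1.24 CPM in niclosamide 1 to 3, against 0.802, 0.961 and 0.973 CPM in vehicle 1 to 3. It was higher in every niclosamide library than in any vehicle library, at a log2 fold change of 0.74 ± 0.30 (SE; edgeR unadjusted p = 0.045, adjusted p = 0.71). Some neuronal genes of the list were read more often, with 130 to 285 counts of *Stmn2*, 142 to 279 of *Uchl1* and 58 to 466 of *Tubb3* per library, and their groups overlapped. Others were scarcely counted, with at most 2 counts of *Stmn3*, 7 of *Snap25*, 1 of *Elavl3*, 3 of *Ina* and 37 of *Elavl4* in any library. The tested genes of this list with the smallest p are also used outside neurons: *Dpysl3*, a microtubule-binding protein gene, had 129, 163 and 173 CPM in niclosamide 1 to 3, against 265, 208 and 250 CPM in vehicle 1 to 3. *Map1b*, another microtubule-associated protein gene, averaged 50.2 CPM ± 5.38 in niclosamide lesions and 70.3 CPM ± 7.18 in vehicle lesions (SD, n = 3 each). The groups did not overlap for either gene, at log2 fold changes of -0.64 ± 0.17 and -0.49 ± 0.14 (edgeR adjusted p = 0.60 for each). Of the 10 tested genes 2 were thus apart as lower and 1 as higher, where 6.38% and 5.90% of all genes tested were.

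Of 12 sensory neuron genes 6 were tested and 0 passed, with 2 below 0 and a median of 0.08. The pain channel genes *Scn10a* and *Scn9a* had 0 and at most 2 counts in any library, and *Trpv1* at most 9. *Piezo2*, a mechanosensitive channel gene and the most abundant of the list by CPM, averaged 29.2 CPM ± 4.90 in niclosamide lesions and 26.9 CPM ± 2.05 in vehicle lesions. *P2rx3* and *Adcyap1*, which had the smallest p, were below 1 CPM in every library. *Calca*, the precursor gene of the sensory peptide CGRP and of calcitonin, was at 2.49 to 6.58 CPM in niclosamide lesions and 2.66 to 10.6 CPM in vehicle lesions.

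The tachykinin genes besides *Tac1* gave 3 tested of 6, with 0 past the threshold and a median log2 fold change of 0.03. *Tacr1*, the receptor gene for substance P, had 12.3, 3.18 and 5.47 CPM in niclosamide 1 to 3, against 9.33, 6.86 and 8.70 CPM in vehicle 1 to 3, and the groups overlapped. *Mme*, the peptidase gene that degrades substance P, had 38.6, 32.1 and 141 CPM in niclosamide 1 to 3, against 38.1, 68.3 and 101 CPM in vehicle 1 to 3. *Tac2*, the neurokinin B precursor gene, was at 3.42 CPM in niclosamide 3 and at 0 to 0.556 CPM in the other 5 libraries.

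Of 16 Schwann cell markers 15 were tested and 0 passed, with 10 above 0 and a median log2 fold change of 0.34. Their summed level was 130 to 189 TPM in niclosamide lesions and 170 to 199 TPM in vehicle lesions, and none of the 16 was at 0 in every library. Most of that sum in every library was *Pmp22*, at 70.8 to 139 TPM in niclosamide lesions and 104 to 136 TPM in vehicle lesions. The log2 fold change of *Pmp22* was -0.17, so the sum follows 1 gene more than the list. *Sox10*, the defining factor of the lineage, was at 0.0932 to 1.60 CPM in niclosamide lesions and 0.345 to 0.741 CPM in vehicle lesions, highest in niclosamide 1. *Ngfr* was lowest in niclosamide 1, at 12.9 CPM, and among vehicle libraries both genes were highest in vehicle 2. The part of Schwann cells in the *Ngfr* values was not tested.

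By the root mean square difference of centred log2 CPM over the 6 libraries, among 13111 genes with a mean log2 CPM of at least 1, the genes nearest to *Bdnf* were the transposase-derived gene *Pgbd5* (0.11) and *Ltbp1* (0.13), a latent TGF-β binding protein gene. The nearest to *Gdnf* were the potassium channel gene *Kcns3* (0.08) and *Ampd3* (0.13), an AMP deaminase gene. *Ntf3* was nearest to *Epb4.1l5* (0.17) and *Syne4* (0.18), *Ngfr* to *Asxl3* (0.19) and *Foxl2os* (0.23), *Ntrk2* to *Skida1* (0.05) and *Ntn3* (0.06), *Gfra1* to *Gas6* (0.06) and *Tob2* (0.06), and *Gap43* to *Phf19* (0.13) and *Stx18* (0.14). For scale, the root mean square spread of the genes of the set around their own means ran from 0.21 for *Gfra1* to 0.96 for *Ngfr*.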

How the data were processed

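The deposited values are raw read counts per gene symbol, made by the authors with featureCounts 1.4.6-p4 on STAR alignments, reverse-stranded and summed over exons of the GRCm38.p3 annotation, per the file headers. The headers show no option for reads that map to several places or overlap several genes. The submitters' processing notes also name STAR 2.4.2a, Trimmomatic 0.33, bcl2fastq 1.8.4 and edgeR 3.12.0.

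The 3 niclosamide libraries were compared with the 3 vehicle libraries by edgeR 4.0.16 in R 4.3.3 (filterByExpr with a minimum count of 10 and a minimum total of 15, TMM scaling, robust quasi-likelihood test, group as the only term, Benjamini-Hochberg adjustment over 17364 genes, threshold 0.05). The SE of a log2 fold change is its size divided by the root of its F statistic. CPM uses TMM-scaled totals, log2 CPM a prior count of 2, and TPM the union exon length. The fit was tested on simulated data. Alternatives were RLE and upper quartile scaling, DESeq2 1.42.0, no filter, a filter of 1 CPM in 3 libraries, a fit blocked by replicate number, and dropping 1 library at a time.

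The genes and lists were chosen with earlier results of these data known. Named were the 8 genes and, per list, the genes past the threshold or else the 2 with the smallest p, the most abundant gene by CPM, and the 2 nearest genes in profile. Others (*Ret*, *Calca*, *Sox10*, *Pmp22*, *Hoxa10*, *Pgr*, *Emx2*, *Foxa2*, *Des*, *Acta2*, *Myh11*, *Rn7sk*, *Rpph1*, *Nefh*, *Stmn2*, *Uchl1*, *Tubb3*, *Sema3a*, *Sema3e*, *Npy*, *Nos1* and genes at few counts) were named for their role after their values were seen. In the neurotrophin list, 2 genes are counted but not reported here by name. P-values measure the spread between libraries, 1 of which is a pool.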

Additional observations from a re-analysis of the deposited data

How the results depend on the processing

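None of the log2 fold changes of the 7 tested genes changed sign under the 12 alternatives. *Tac1* was not tested, and without niclosamide 1 its mean was 0.0930 CPM in niclosamide lesions, below the 0.104 CPM in vehicle lesions, where with all libraries it was 0.130 CPM. DESeq2 called 178 genes, where edgeR's quasi-likelihood test called 0 (1202 at an unadjusted p under 0.05); among the 178 were 1 gene of the set, *Bdnf* (log2 fold change -1.17, Benjamini-Hochberg adjusted p = 0.0023), and 1 gene of the other nerve and pathway lists, *Nrtn*. Without a filter on low counts edgeR called 1 gene, of neither. Adjusted p for *Bdnf* over the alternatives ran from 0.0023 to 1.00. Leaving out each library in turn, with 2 libraries left in that group, gave 0 calls throughout, and log2 fold changes of -1.29 to -1.07 for *Bdnf*, -1.42 to -0.52 for *Ntf3*, -0.90 to -0.22 for *Ntrk2*, -1.84 to -0.68 for *Ngfr*, -1.32 to -0.71 for *Gdnf*, -0.32 to -0.10 for *Gfra1* and 0.02 to 0.99 for *Gap43*. *Gap43* rests on niclosamide 3. Replicate numbers did not pair the libraries: deviations from the group means of equally numbered libraries had correlations of -0.08, -0.09 and 0.27 across genes, and of the niclosamide libraries only niclosamide 3 correlated best with its own number. With the replicate number as a block 0 genes were called, and *Bdnf* had a log2 fold change of -1.17 (adjusted p = 0.60). With 3 libraries per group and counts as low as those of *Tac1*, small differences were not detectable.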

Other observations

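Axon guidance cues, secreted or membrane-bound proteins that steer growing axons, mostly had lower means in niclosamide lesions, and none passed the threshold. Of 12 genes, all tested, 0 passed by edgeR's quasi-likelihood test, 10 had a log2 fold change below 0 (46.3% of all genes tested) with a median of -0.35 (0.02 over all), and 4 were lower at an unadjusted p under 0.05 (3.55% of all), *Ntn1*, *Ntn4*, *Sema3a* and *Sema3e*. *Ntn1*, the attractant netrin-1, had 40.0, 72.0 and 56.8 CPM in niclosamide 1 to 3, against 112, 84.3 and 94.1 CPM in vehicle 1 to 3, without overlap (log2 fold change -0.78 ± 0.23 SE, edgeR adjusted p = 0.60). *Ntn4* averaged 10.2 CPM ± 2.18 in niclosamide lesions and 16.7 CPM ± 3.39 in vehicle lesions (SD, n = 3 each), also without overlap. These were the 2 of the 12 genes whose groups did not overlap, where 6.38% of all genes tested were apart as lower. *Sema3c*, the most abundant of the list by CPM, averaged 84.1 CPM ± 26.3 in niclosamide lesions and 100.4 CPM ± 4.00 in vehicle lesions (SD, n = 3 each).

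Among 12 autonomic neuron genes 4 were tested and 0 passed, with 3 above 0. The gene below 0 was *Npy*, the neuropeptide Y gene, with 55 to 448 counts per library and overlapping groups (log2 fold change -0.51 ± 0.76 SE, edgeR adjusted p = 0.97). *Nos1*, above 0, was at 0.463 to 16.4 CPM in niclosamide lesions and 2.04 to 8.10 CPM in vehicle lesions. The synthesis genes of noradrenaline and acetylcholine were scarcely counted, *Th* with at most 9, *Dbh* with at most 19 and *Chat* with at most 6 counts in any library. *Slc6a2*, the noradrenaline transporter gene, had 4.35, 6.05 and 54.7 CPM in niclosamide 1 to 3, against 5.06, 4.83 and 3.01 CPM in vehicle 1 to 3 (edgeR adjusted p = 0.74). Niclosamide 3, the library high for *Slc6a2*, is also the one high for *Gap43*, *Tac2* and *Mme*, and had 333 CPM of *Hoxa10* where the other 5 libraries had 55.1 to 206 CPM. *Slc18a2*, the vesicular monoamine transporter gene, was below 1 CPM in every library.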
